A study of Mus musculus with 8 samples.

Results

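The genes described here are the nuclear-encoded subunits of the mitochondrial respiratory chain and ATP synthase in mouse spermatogenic cells, Brg1 wild-type or conditional knockout. They were picked by gene symbol alone, as Nduf followed by a, b, c, s or v and a digit, Sdha to Sdhd, Cox followed by a digit from 4 to 8 and a letter, or a symbol starting with Uqcr or Atp5, which gave 86 of the 28460 genes in the count table. By symbol, 37 belonged to complex I, 4 to complex II, 8 to complex III, 18 to complex IV and 19 to complex V, the ATP synthase. Some names caught in this way are no subunits. Atp5s and Atp5sl are assembly-related genes that have since been renamed, and Atp5l-ps1 and Atp5l2 are pseudogenes. Ndufa4 is now counted with complex IV in spite of its symbol. All of them were kept in the counts.

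The cells came from testes of 12-day-old mice of mixed strain background, with 4 libraries of Brg1 wild-type (WT) and 4 of Brg1 conditional knockout (cKO) samples. Brg1, encoded by Smarca4, is an ATPase of the SWI/SNF complex, which moves and evicts nucleosomes. The sources used here do not give the Cre driver or the deleted exons of the knockout. Testes were digested with collagenase and trypsin and the cells passed through a sieve, with no marker sort named, and the design text calls the samples biological replicates without saying that each came from its own animal.

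Complexes I to IV pass electrons from NADH and succinate to oxygen, complexes I, III and IV pump protons across the inner mitochondrial membrane, and complex V uses the proton gradient to make ATP. Most subunits are encoded in the nucleus and a few in mitochondrial DNA, so that each complex except complex II is put together from both sources. Several subunits of complex IV have paralogs with restricted expression, among them the testis isoforms Cox6b2, Cox7b2 and Cox8c, and meiotic germ cells are known to feed on lactate from Sertoli cells.

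Smarca4 had 347.5, 356.6, 346.9 and 337.9 CPM (counts per library total, each total scaled to the same size) in WT replicates 1 to 4 against 129.2, 122.3, 110.9 and 121.7 CPM in cKO replicates 1 to 4. The genotypes did not overlap (log2 fold change -1.52 ± 0.061 SE, n = 4 each, adjusted p = 6.8e-06 by edgeR's quasi-likelihood test with Benjamini-Hochberg adjustment). The cKO libraries still held the transcript, at a fitted 0.348 of the WT level. Library totals ran from 20456700 to 32596000 estimated counts. All 20 pan-germ cell markers were detected, summing to 3010 to 3880 CPM in WT and 2310 to 3020 CPM in cKO. Of these 4 were lower and 0 higher, beside 11.8% lower and 8.79% higher over all genes tested. All 20 Sertoli cell markers were detected as well, summing to 6060 to 7920 CPM in WT and 7830 to 10200 CPM in cKO, with 9 higher and 1 lower. The libraries labelled spermatogenic cells therefore held RNA of somatic cells too, and in such bulk samples fewer cells of a type and less RNA per cell cannot be told apart. The part of this shift in the results below was not tested.

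Most respiratory chain genes had close to the same level in both genotypes. Of the 81 members with enough counts to be tested, 4 were higher and 5 lower in cKO at an adjusted p under 0.05, and 72 did not pass. Relative to the bulk of genes, the genes that rose included Ndufb11, Cox7b and Atp5g3, and Ndufa11, Ndufa10, Ndufs8, Ndufa5 and Cox6a1 fell. When the median Sertoli marker was taken as no change the fold changes of Ndufb11, Cox7b and Atp5g3 became negative, and with the median pan-germ marker as no change those of Ndufa5, Ndufs8 and Cox6a1 became positive. The share called was 11.1% of the members (4.94% higher and 6.17% lower), against 20.6% of the 16059 genes tested (8.79% higher and 11.8% lower). For 8 lower and 5 higher members no cKO library reached into the range of the WT libraries, where 15% and 11.1% of all genes had such a separation.

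The changes were also small. The members' log2 fold changes ran from -0.83 to 0.86 with a median of -0.031, beside 0.013 over all genes, and 62 of the 81 (76.5%) lay within 0.2 of 0, compared with 44.6% of all genes. None reached 1 on the log2 scale in either direction, while 748 of all tested genes did. These comparisons take genes of all levels. How far fold changes spread among genes at the members' own levels was not compared. The median standard error was 0.086, so a shift of the size of most members' values could not be told from the replicate spread. Fold changes below 0 were found for 49 members (60.5%), beside 48.5% of all genes. At the level of most members, 17.7 to 102 CPM, 10.9% of 6201 genes were higher and 13.4% lower.

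**Figure D1:**
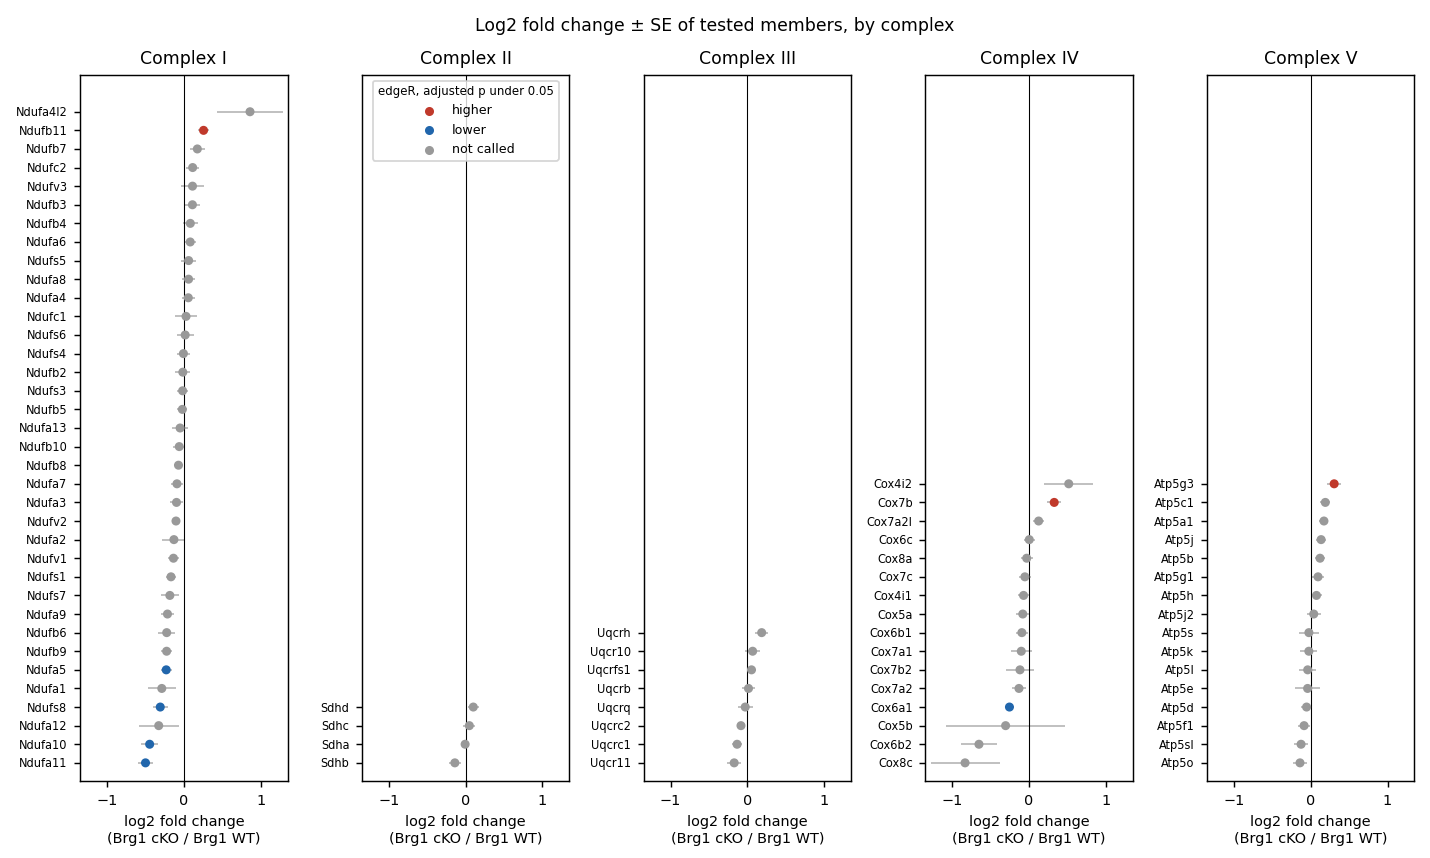
Log2 fold change (cKO over WT, x axis) with its SE for tested members, 1 panel per complex, with genes called higher in red, lower in blue and uncalled in grey. Most points lie close to 0, and the called genes sit in the larger complexes I, IV and V. Of all tested members 11.1% were called, beside 20.6% of all genes. The higher genes shown turn negative when the median Sertoli marker is set to no change.

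Of the 37 members of complex I, all tested, 2 were higher (5.41%) and 4 lower (10.8%), beside 8.79% and 11.8% of all genes, with a median log2 fold change of -0.05. With the median pan-germ marker as no change, the median of complex I was 0.28 instead.

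Ndufa11, an accessory membrane-arm subunit, had the clearest fall. Its levels were 47.91, 40.33, 44.07 and 43.48 CPM in WT and 29.26, 36.23, 28.47 and 30.33 CPM in cKO. The genotypes did not overlap, and cKO replicate 2 was nearest to the wild-type range. From 43.9 ± 3.11 to 31.1 ± 3.52 CPM (SD, n = 4 each), the log2 fold change was -0.50 ± 0.092 (SE, adjusted p = 0.0083, edgeR). It stayed called in all 8 fits without 1 library, but not without both WT replicates 1 and 2 (-0.49, adjusted p = 0.058, edgeR). Of its transcript's 31-base words 9.52% also occur in another gene, its copy Ndufa11b, and its exons overlap those of Vmac on the other strand by 70 bases.

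Ndufa10, an accessory subunit, had 34.45, 28.26, 31.51 and 25 CPM in WT and 22.66, 21.14, 19.69 and 24.09 CPM in cKO. The ranges came close but did not overlap. The log2 fold change was -0.45 ± 0.11 (SE, n = 4 each, adjusted p = 0.024, edgeR), and the call was lost when WT replicate 1, 2 or 3 or cKO replicate 1 or 3 was left out, adjusted p (edgeR) reaching 0.066.

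Ndufa5, an accessory subunit of the peripheral arm, varied little among replicates. It had 25.37, 23.43, 24.94 and 24.79 CPM in WT and 20.42, 21.29, 21.25 and 21.07 CPM in cKO, which did not overlap. The fold was small, -0.23 ± 0.070 on the log2 scale (SE, n = 4 each, adjusted p = 0.045, edgeR), and the call was lost in each of the 8 fits without 1 library (adjusted p 0.058 to 0.12, edgeR).

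Ndufs8, a core subunit with iron-sulfur clusters, falls outside the naming rule and was named after its values were seen. It had 54.86, 49.11, 50.82 and 47.51 CPM in WT and 38.96, 48.51, 39.94 and 35.92 CPM in cKO. Here the genotypes overlapped, since cKO replicate 2 lay within the wild-type range. The log2 fold change of -0.31 ± 0.096 (SE, n = 4 each, adjusted p = 0.049, edgeR) was called in only 1 of the 8 fits without 1 library, that without cKO replicate 2 (-0.40, adjusted p = 0.0099, edgeR).

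Ndufb11, an X-linked accessory subunit, rose. It had 32.32, 29.48, 32.30 and 35.05 CPM in WT and 37.95, 38.20, 39.54 and 38.54 CPM in cKO. All cKO libraries were above all WT libraries. The log2 fold change was 0.26 ± 0.069 (SE, n = 4 each, adjusted p = 0.030, edgeR), with the call lost without WT replicate 1, 2 or 3 or cKO replicate 1 or 3 (adjusted p up to 0.074, edgeR). Its exons overlap those of Rbm10 on the other strand by 117 bases. The library kit kept strand, but whether the counting used it is not stated in the sources used here.

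Among the other members of complex I, the libraries of the genotypes were also separate for Ndufb9, Ndufb6, Ndufs1 and Ndufv2, all lower in cKO, which did not pass the test (adjusted p = 0.058, 0.17, 0.096 and 0.17, edgeR). These 4 were named after their values were seen, and 7 of the 37 members of complex I had such a separation in the lower direction, where 15% of all genes did. Ndufs1, which carries iron-sulfur clusters on the path of the electrons, had 115.3, 105.2, 98.25 and 100.6 CPM against 90.19, 96.51, 88.87 and 97.75 CPM. Of the pair Ndufa4 and Ndufa4l2, the former had 42.26 to 51.05 CPM in WT and 45.07 to 54.74 CPM in cKO (adjusted p = 0.65, edgeR). Ndufa4l2, a paralog known as a target of hypoxia signalling, stayed between 0.74 and 3.72 CPM over all libraries, the highest being cKO replicate 2 (log2 fold change 0.86 ± 0.43, SE, n = 4 each, adjusted p = 0.18, edgeR).

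**Figure D2:**
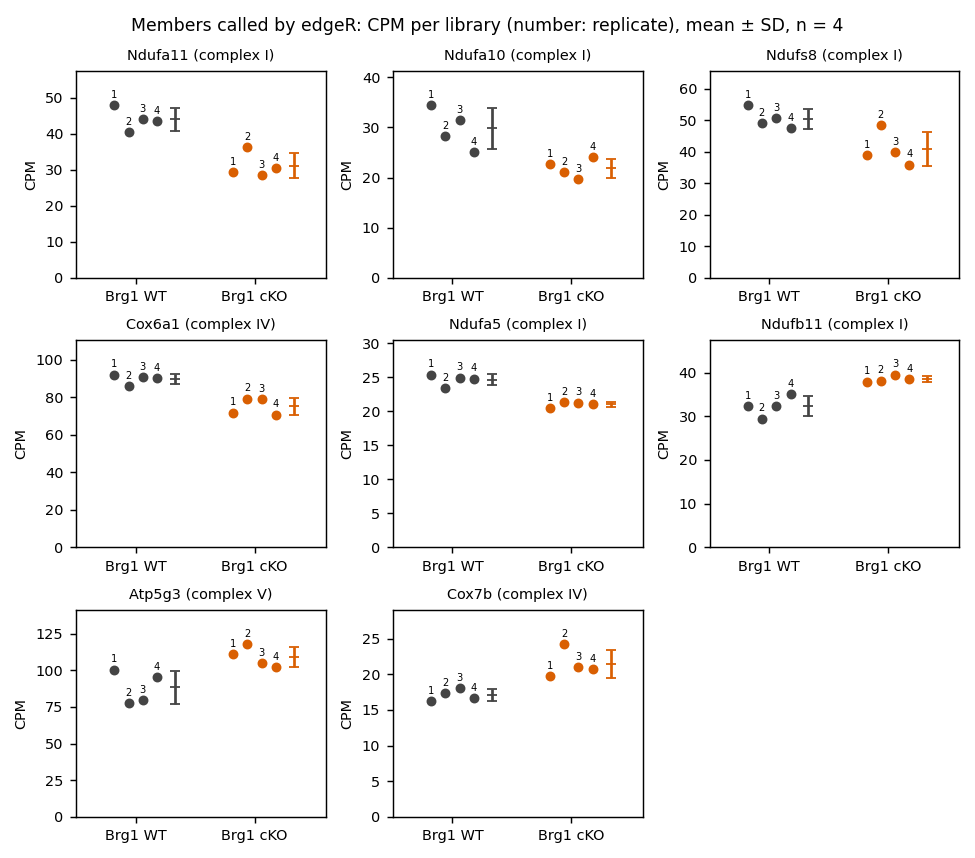
CPM of called members in each library (y axis, numbers give the replicate), with mean and SD of the 4 libraries of each genotype. Of these genes only Ndufs8 has overlapping genotypes, through cKO replicate 2; the higher genes shown turn negative with scaling to Sertoli markers, and Ndufa5, Ndufs8 and Cox6a1 turn positive with scaling to pan-germ markers.

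Complex II, succinate dehydrogenase, links the citric acid cycle to the chain and is the only complex with no mitochondrially encoded subunit. None of its 4 subunits was called by edgeR, DESeq2 or limma-voom, and 0 had an unadjusted p under 0.05 in any of these fits. Over all genes edgeR called 20.6%, and 4 genes are too few to tell 0 from that share. Sdha, the flavoprotein that oxidises succinate, had 196.6, 200.5, 197.9 and 201.0 CPM in WT and 196.6, 205.5, 191.7 and 198.8 CPM in cKO. Those ranges lie within each other (log2 fold change -0.0062, adjusted p = 0.94, edgeR).

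Sdhb, the iron-sulfur subunit, had 68.22, 60.96, 61.73 and 64.73 CPM against 52.33, 64.66, 55.78 and 59.17 CPM. Sdhc and Sdhd anchor the enzyme in the membrane. Sdhc had 76.22, 72.23, 67.54 and 65.54 CPM against 68.17, 81.17, 73.55 and 68.17 CPM, and Sdhd had 65.69, 54.87, 55.44 and 58.09 CPM against 62.77, 67.10, 61.12 and 59.91 CPM. The genotypes overlapped for all 4 subunits, and adjusted p (edgeR) for Sdhb, Sdhc and Sdhd was 0.21, 0.67 and 0.34.

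Complex III passes electrons from ubiquinol to cytochrome c. None of its 8 nuclear members was called by edgeR, DESeq2 or limma-voom. With 20.6% of all genes called by edgeR, 8 genes are too few to tell 0 from that share. At an unadjusted p under 0.05 there were 0 in edgeR and limma-voom and 1 higher in DESeq2, and the median log2 fold change was -0.0061. Uqcrc1, a core subunit and the most abundant member by CPM, had 119.6, 120.0, 119.8 and 116.1 CPM in WT and 102.8, 116.4, 100.7 and 113.7 CPM in cKO. cKO replicate 2 passed the lowest wild-type value, so the genotypes overlapped (-0.13 ± 0.061 on the log2 scale, SE, n = 4 each, adjusted p = 0.14, edgeR).

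Complex IV, cytochrome c oxidase, had 16 tested members of 18, with a median log2 fold change of -0.087. Of these 1 was higher (6.25%), 1 lower (6.25%) and 14 uncalled, beside 8.79% higher and 11.8% lower over all genes. Its 2 untested members were the muscle isoforms Cox6a2, with 1 to 11 counts per library, and Cox8b, with 0 to 2. Of the 10 broadly expressed subunits 8 had a fold change below 0 (median -0.076), a sign that turned for the complex as a whole with the median pan-germ marker as no change (median 0.25).

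Cox6a1, the broadly expressed form of a regulatory subunit, fell. It had 91.98, 85.81, 90.73 and 90.17 CPM in WT and 71.79, 79.27, 78.80 and 70.64 CPM in cKO. The genotypes were well apart. It averaged 89.7 ± 2.68 and 75.1 ± 4.54 CPM (SD, n = 4 each), and the fitted log2 fold change was -0.26 ± 0.059 (SE, adjusted p = 0.018, edgeR), and the call was lost without WT replicate 3 (adjusted p = 0.055, edgeR) and without cKO replicate 1 (0.057). Some 23.8% of its 31-base words occur in other genes.

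Cox7b, whose X-linked gene encodes a small membrane subunit, rose. It had 16.20, 17.41, 18.09 and 16.65 CPM in WT and 19.78, 24.24, 21.01 and 20.73 CPM in cKO, with no overlap and cKO replicate 2 the highest. The log2 fold change was 0.33 ± 0.092 (SE, n = 4 each, adjusted p = 0.034, edgeR), called in only 2 of the 8 fits without 1 library, those without WT replicate 3 and without cKO replicate 4, with an adjusted p (edgeR) up to 0.071 in the others.

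The testis isoforms were detected at this age, and none was called by edgeR, while DESeq2 called Cox6b2 lower. The 250 bases before the start of both genes of the pairs Cox6b1 with Cox6b2 and Cox7b with Cox7b2 are shown with those of the called Cox6a1, so that broadly expressed and testis forms can be read side by side. They come from RefSeq on GRCm38.p6 and run 5′ to 3′ on the gene's strand, and capitals mark matches to the motifs described after them.
Cox6b1, chr7:30626115-30626364, minus strand: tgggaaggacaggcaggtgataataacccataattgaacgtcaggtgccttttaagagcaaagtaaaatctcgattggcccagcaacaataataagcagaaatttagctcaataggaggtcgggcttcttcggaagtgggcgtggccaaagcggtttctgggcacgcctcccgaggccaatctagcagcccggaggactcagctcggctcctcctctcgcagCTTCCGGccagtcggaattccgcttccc
Cox6b2, chr7:4753095-4753344, minus strand: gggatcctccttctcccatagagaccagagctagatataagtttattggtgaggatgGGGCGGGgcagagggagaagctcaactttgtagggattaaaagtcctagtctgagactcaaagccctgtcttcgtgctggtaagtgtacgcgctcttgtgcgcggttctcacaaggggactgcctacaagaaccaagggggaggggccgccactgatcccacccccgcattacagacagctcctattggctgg
Cox7b, chrX:106015450-106015699, plus strand: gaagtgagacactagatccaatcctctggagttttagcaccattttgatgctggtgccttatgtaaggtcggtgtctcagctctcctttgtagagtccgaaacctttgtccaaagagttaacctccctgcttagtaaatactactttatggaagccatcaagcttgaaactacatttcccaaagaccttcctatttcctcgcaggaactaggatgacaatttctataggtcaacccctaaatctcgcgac
Cox7b2, chr5:71548206-71548455, minus strand: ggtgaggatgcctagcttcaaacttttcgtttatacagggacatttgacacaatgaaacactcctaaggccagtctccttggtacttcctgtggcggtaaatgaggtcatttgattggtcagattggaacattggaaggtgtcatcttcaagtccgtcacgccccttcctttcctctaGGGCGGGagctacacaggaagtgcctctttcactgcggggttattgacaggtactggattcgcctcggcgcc
Cox6a1, chr5:115348959-115349208, minus strand: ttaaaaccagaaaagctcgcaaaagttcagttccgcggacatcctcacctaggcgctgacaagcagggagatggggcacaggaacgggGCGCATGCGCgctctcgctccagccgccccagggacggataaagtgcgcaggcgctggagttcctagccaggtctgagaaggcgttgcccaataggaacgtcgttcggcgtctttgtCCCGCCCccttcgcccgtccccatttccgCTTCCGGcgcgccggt
Capitals stand for CCGGAAG (ETS factors), GCGCATGC (NRF1, a regulator of respiratory genes) and GGGCGGG (SP1), read on either strand, where NRF1 matches on both strands can overlap. Cox6b1 held an ETS match, Cox6b2 and Cox7b2 an SP1 match, Cox6a1 all 3 kinds and Cox7b none. A match describes letters in this window and not binding.

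Over the 69 members with a promoter in the RefSeq table, 8 (11.6%) held the NRF1 letters, against 2.56% of 27025 symbols with a promoter and 4.69% of the 11297 that were tested here. The ETS letters stood in 12 members (17.4%), against 7.83% of all symbols and 14% of tested genes. SP1 letters stood in 21 members (30.4%), against 25.7% and 46%. Of the other motifs searched, the CRE letters TGACGTCA stood in 4 members (5.8%) against 1.77% and 2.88%, and the YY1 letters AAGATGGC in 2 members (2.9%) against 1.83% and 2.19%. The E2F6 letters GGCGGGAA, which can overlap an SP1 match in part, stood in 2 members (2.9%) against 2.13% of symbols and 3.85% of tested genes. For some members the bases after the start were not found in a GENCODE transcript of the gene. Among them were Ndufa11, with CRE and NRF1 letters, and Ndufb2, with CRE letters. The members' shares also include untested members such as Atp5g2, which held the NRF1 letters.

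Cox6b2, the testis form of a subunit that joins the oxidase into dimers, had 10.73, 9.125, 6.601 and 5.699 CPM in WT and 3.709, 5.613, 5.975 and 5.145 CPM in cKO. WT replicates 1 and 2 were the highest, and WT replicate 4 overlapped with cKO. From 8.04 ± 2.31 to 5.11 ± 0.995 CPM (SD, n = 4 each) the log2 fold change was -0.65 ± 0.23 (SE, adjusted p = 0.069, edgeR), and DESeq2 called it (adjusted p = 0.038). Without WT replicates 1 and 2 the log2 fold change was -0.27 (adjusted p = 0.49, edgeR).

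Its broadly expressed partner Cox6b1 had 50.37, 48.31, 52.14 and 50.56 CPM in WT and 46.06, 54.31, 46.56 and 41.75 CPM in cKO, which overlapped (adjusted p = 0.44, edgeR). Cox6b2 made up 10.1% to 17.6% of the summed CPM of the pair in WT and 7.45% to 11.4% in cKO. Per kilobase of the longest coding transcript, Cox6b2 averaged 13.7 CPM in WT and 8.74 CPM in cKO, and Cox6b1 averaged 81.4 and 76.4 CPM.

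Cox7b2, the testis form of Cox7b, had 15.89, 12.19, 8.985 and 9.445 CPM in WT and 10.03, 12.21, 10.31 and 10.29 CPM in cKO. WT replicate 1 was again the highest of all libraries and the genotypes overlapped. The log2 fold change was -0.12 (n = 4 each, adjusted p = 0.66, edgeR) and 0.22 without WT replicates 1 and 2. Per kilobase it was of the order of Cox7b itself, with 21.4 CPM beside 17.1 CPM in WT and 19.7 CPM beside 21.4 CPM in cKO. Its share of the pair's CPM was 33.2% to 49.5% in WT and 32.9% to 33.6% in cKO.

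Cox8c, the testis form of a small membrane subunit, was rare. It had 3.442, 1.917, 1.253 and 0.7328 CPM in WT and 1.282, 0.9476, 1.243 and 0.6431 CPM in cKO, from 13 to 102 counts a library. WT replicates 1 and 2 lay above the rest and the other libraries overlapped. The log2 fold change of -0.83 ± 0.45 (SE, n = 4 each, adjusted p = 0.20, edgeR), the most negative of all members, was 0.049 without those 2 libraries. The broadly expressed Cox8a had 54.22 to 62.95 CPM in WT and 54.17 to 65.02 CPM in cKO (adjusted p = 0.80, edgeR), and averaged 109 and 106 CPM per kilobase, against 4.02 and 2.25 for Cox8c.

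Markers of later germ cells had a lower mean level in every cKO library than in any WT library. Of 22 pachytene and spermatid markers 12 were tested, and edgeR called 6 lower and 0 higher, beside 11.8% and 8.79% of all genes. The uncalled Acrv1 and Insl6 had log2 fold changes above 0 (0.39 and 0.14). The mean log2 CPM of the tested markers was 3.12, 2.87, 2.27 and 2.19 in WT replicates 1 to 4 and 1.97, 1.94, 1.89 and 1.77 in the cKO libraries. WT replicates 1 and 2 were highest, as they were for Cox6b2 and Cox8c, while Cox7b2 was lower in WT replicates 3 and 4 than in every cKO library. All 22 markers summed to 198 to 313 CPM in WT and 145 to 162 CPM in cKO, mostly from Hspa2, Tbpl1 and Ybx2. None of the 22 stood at 0 in all libraries, but the spermatid genes Prm1, Prm2 and Tnp2 were near it. Their highest values in any library were 0.115, 0.036 and 0.12 CPM. The part of later germ cells in the isoform values was not tested.

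**Figure D3:**
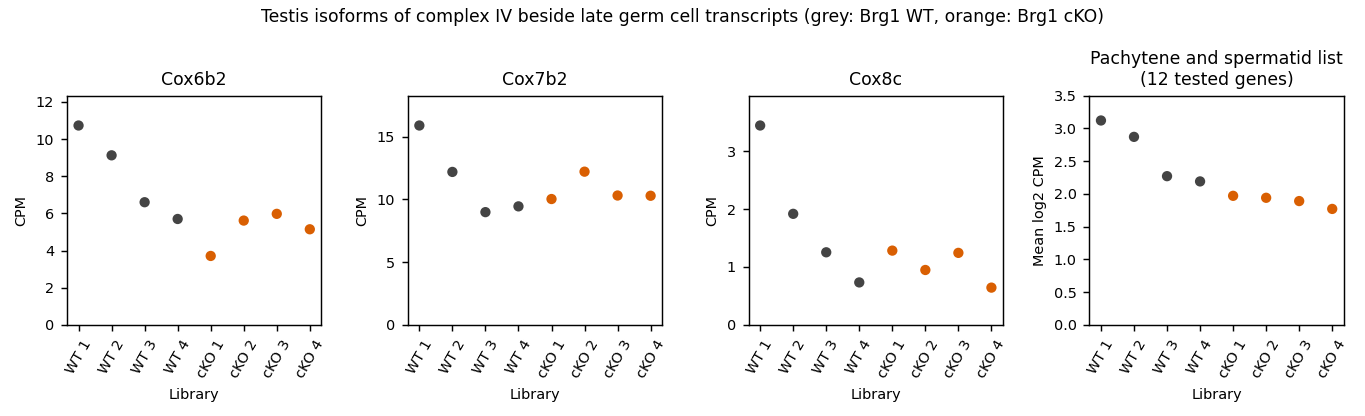
CPM of Cox6b2, Cox7b2 and Cox8c in each library, WT in grey and cKO in orange, beside the mean log2 CPM of the 12 tested pachytene and spermatid markers. WT replicates 1 and 2 are the highest for Cox6b2, Cox8c and the markers, and the genotypes overlap for each of the 3 isoforms.

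The other isoform pairs of complex IV did not pass the test. Cox4i1, a broadly expressed regulatory subunit, had 187.2, 165.7, 178.9 and 179.2 CPM in WT and 162.5, 192.3, 153.5 and 168.4 CPM in cKO (adjusted p = 0.53, edgeR). Its paralog Cox4i2, known from lung and hypoxia, stayed between 0.61 and 1.71 CPM (adjusted p = 0.27, edgeR). Cox7a1, the muscle and heart form, had 3.545 to 4.521 CPM in WT and 3.463 to 3.983 CPM in cKO (adjusted p = 0.64, edgeR).

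Cox7a2, the broadly expressed form, had 56.72, 45.17, 45.90 and 47.75 CPM in WT and 42.49, 51.36, 42.51 and 42.10 CPM in cKO, with overlap (adjusted p = 0.35, edgeR). Cox7a2l, which holds complexes III and IV together in supercomplexes, had 84.99, 80.40, 94.64 and 92.13 CPM against 97.66, 100.7, 86.98 and 98.79 CPM (adjusted p = 0.23, edgeR). Markers of skeletal and cardiac muscle, where Cox7a1, Cox6a2 and Cox8b are known from, summed to 70.7 to 86.5 CPM in WT and 51.7 to 53.5 CPM in cKO. Of 10 tested, edgeR called 2 lower and 0 higher, beside 11.8% and 8.79% of all genes. They were Actn3 (30.3 to 14.9 CPM) and Myh6 (18.6 to 9.12 CPM). Acta1 averaged 0.682 CPM in WT and 0.681 CPM in cKO, and Ckm 0.267 and 0.413 CPM, so the sum does not show muscle RNA.

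Complex V had 16 tested members of 19, with 1 higher (6.25%), 0 lower and 15 uncalled, beside 8.79% higher and 11.8% lower over all genes (edgeR). DESeq2, which called 13.3% of all genes higher and 13.2% lower, called 3 of them higher and limma-voom (8.54% and 11.7%) called 1. At an unadjusted p under 0.05 edgeR had 3 of the 16 higher and 0 lower, beside 2838 higher and 3059 lower of all 16059 genes tested. Atp5g3 encodes the c subunit that forms the turning ring. It had 100.5, 77.83, 79.70 and 95.18 CPM in WT and 111.2, 117.8, 105.0 and 102.3 CPM in cKO, and the lowest cKO library stood just above the highest WT library.

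Atp5g3 averaged 88.3 ± 11.3 and 109 ± 6.92 CPM (SD, n = 4 each), and the fitted log2 fold change was 0.31 ± 0.092 (SE, adjusted p = 0.044, edgeR). The call held only without WT replicate 1 or without cKO replicate 4 and was lost in the other 6 fits without 1 library (adjusted p up to 0.11, edgeR). Atp5g1 encodes the same mature ring protein and had 67.68, 61.88, 59.84 and 64.48 CPM against 65.24, 78.14, 65.61 and 62.04 CPM (adjusted p = 0.42, edgeR). Atp5g3 made up 55.7% to 59.8% of the CPM of Atp5g1 and Atp5g3 in WT and 60.1% to 63.0% in cKO. The third gene for this protein, Atp5g2, was at 0 in all 8 libraries, as were 5202 of the 28460 genes. Of its 31-base words 40.2% occur in other genes. Whether the counting could assign reads to it is not given in the sources, so its 0 cannot be read as absence of the transcript.

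None of the 5 subunits of the catalytic F1 head was called by edgeR, although their summed level on TMM-scaled totals was higher in every cKO library, 1486 to 1637 CPM, than in any WT library, 1383 to 1477 CPM. On plain library totals these sums overlapped, with 1456 to 1611 CPM in cKO and 1388 to 1542 CPM in WT. Most of the sum was Atp5b and Atp5a1. Fold changes were above 0 for 3 of the 5 subunits and below 0 for 2, Atp5d and Atp5e (-0.054 and -0.041 on the log2 scale, adjusted p = 0.59 and 0.87, edgeR). Atp5a1, Atp5b and Atp5c1 are described because of their values. Atp5a1, the alpha subunit, had 465.7, 456.8, 461.3 and 491.3 CPM against 507.9, 558.1, 516.3 and 529.4 CPM, with no overlap (log2 fold change 0.17 ± 0.059, SE, n = 4 each, adjusted p = 0.066 in edgeR and 0.0032 in DESeq2). Its exons overlap those of Haus1 on the other strand by 129 bases.

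Atp5b, the catalytic beta subunit, had 609.8, 617.9, 602.1 and 657.1 CPM against 666.7, 710.7, 694.2 and 633.0 CPM, where only cKO replicate 4 lay within the wild-type range (adjusted p = 0.20, edgeR). Atp5c1, the central shaft, had 179.2, 186.1, 196.9 and 194.0 CPM against 217.4, 221.6, 227.2 and 196.2 CPM (0.19 ± 0.063, SE, n = 4 each, adjusted p = 0.059 in edgeR and 0.014 in DESeq2). It passed edgeR's threshold without cKO replicate 4 (adjusted p = 0.029). With the median Sertoli marker as no change the fold changes of Atp5a1, Atp5b and Atp5c1 were negative.

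On TMM-scaled totals, the genotypes' mean summed CPM differed by less than the SD over libraries in complexes I to IV and by more than it in complex V. Complex I summed to 1470 ± 82.9 CPM in WT and 1400 ± 76.6 CPM in cKO (SD, n = 4 each), and complex V to 2140 ± 73.6 and 2290 ± 119 CPM, a ratio of 1.07. All 86 members together summed to 5320 ± 214 and 5370 ± 295 CPM, a ratio of 1.01. On plain library totals complex V averaged 2190 ± 143 and 2230 ± 131 CPM, a difference smaller than the SD, and complex I 1510 ± 153 and 1370 ± 84.6 CPM (SD, n = 4 each). No test was run on these sums.

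**Figure D4:**
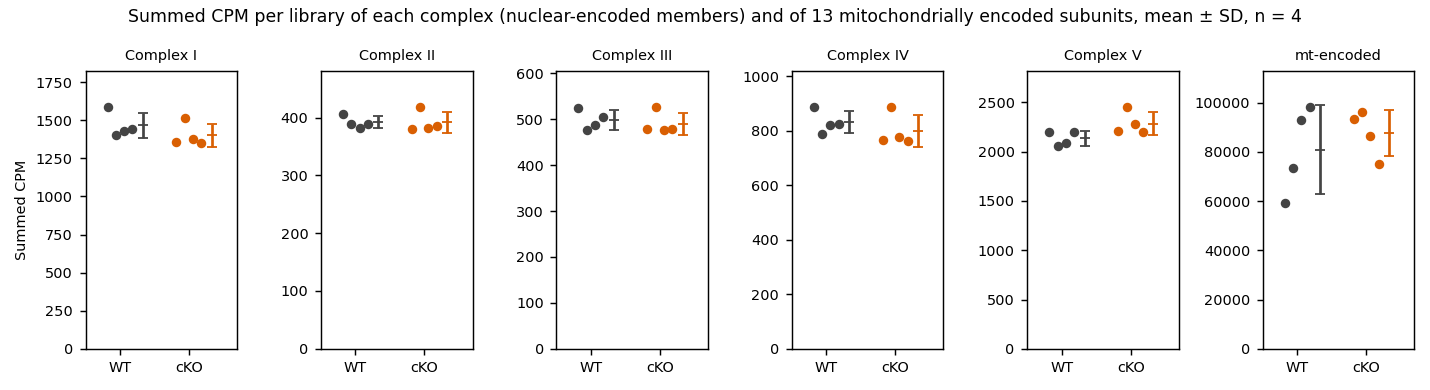
Summed CPM on TMM-scaled totals (y axis, from 0) of the nuclear-encoded members of each complex and of the 13 mitochondrially encoded subunits in each library, with mean and SD of 4 libraries. Complex V runs from 2061 to 2200 CPM in WT and from 2198 to 2455 CPM in cKO, and the genotypes overlap in every panel.

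Within each genotype, most members were highest in the same library. Of the 81 tested members, 56 were highest among the WT libraries in replicate 1 and 64 were highest among the cKO libraries in replicate 2. The median log2 deviation from the genotype mean was 0.11 in WT replicate 1 and 0.14 in cKO replicate 2, and between -0.063 and -0.013 in the other 6 libraries. In cKO replicate 2 the 80 ribosomal protein genes deviated by 0.17 and 193 other genes of similar level with transcripts under 1000 bases by 0.097, while 3287 such genes with transcripts of 3000 bases or more deviated by -0.033.

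In WT replicate 1 these groups deviated by 0.023, 0.059 and 0.0068. The members are short, with a median transcript of 875 bases, and 47 of the tested ones were under 1000. The part of transcript length in the members' values was not tested. Without both of these libraries 2 members were higher and 6 lower (edgeR), against 7.22% and 10.3% of all genes. Within WT the median coefficient of variation of the members was 7.99%, and within cKO it was 8.42%.

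**Figure D5:**
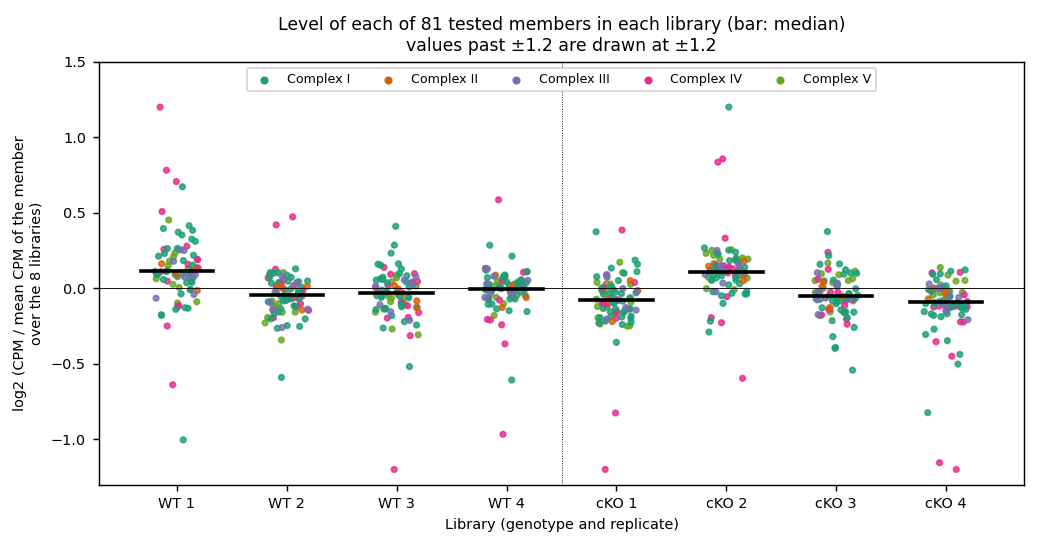
Log2 ratio of each tested member's CPM to its mean over the 8 libraries (y axis, values past 1.2 drawn at 1.2) in each library (x axis), coloured by complex, with bars at the medians. The medians of WT replicate 1 and cKO replicate 2 lie above 0 and those of the other 6 libraries at or below it.

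The remaining subunits are encoded in mitochondrial DNA. None of these 13 was called by edgeR, DESeq2 or limma-voom, and at an unadjusted p under 0.05 there were 0 in edgeR and 1 higher in each of the other tools. Their summed level was 59230, 73380, 92800 and 98240 CPM in WT and 93320, 95970, 86310 and 75070 CPM in cKO. WT replicate 1, in which most nuclear members were highest, had the lowest sum here, and the genotypes overlapped.

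Of 91 tested genes that serve the chain, from 9 lists, 3 were higher (3.3%) and 11 lower (12.1%), beside 8.79% and 11.8% of all genes. Among 7 cytochrome c and subunit genes outside the symbol rule, 1 was higher and 1 lower. Cycs, the somatic cytochrome c that carries electrons from complex III to IV, rose from 180 ± 21.9 to 227 ± 24.0 CPM (SD, n = 4 each), and the fitted log2 fold change was 0.33 ± 0.10 (SE, adjusted p = 0.046, edgeR). 2010107E04Rik, a small ATP synthase protein, fell from 36.0 to 29.3 CPM (adjusted p = 0.037, edgeR).

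Of 15 complex I assembly factors 2 were called lower and 0 higher by edgeR, beside 11.8% lower and 8.79% higher over all genes. An unadjusted p under 0.05 was reached by 5 lower and 0 higher factors, beside 3059 lower and 2838 higher of all 16059 genes tested. Ecsit, which acts in building the membrane arm, fell from 39.7 ± 2.59 to 26.7 ± 1.25 CPM (SD, n = 4 each), with a fitted log2 change of -0.57 ± 0.073 (SE, adjusted p = 0.0023, edgeR), and Ndufaf5, which modifies Ndufs7, fell from 7.43 to 5.40 CPM (adjusted p = 0.037, edgeR). None of 3 complex II and 5 complex III assembly factors was called by edgeR, with 1 and 3 lower at an unadjusted p under 0.05. DESeq2, which called 13.2% of all genes lower, called 1 of complex III lower. Of 20 complex IV factors 1 was lower, Lrpprc, which stabilises mitochondrial mRNAs (133 to 114 CPM, adjusted p = 0.027, edgeR). Of 3 complex V factors 1 was lower, Atpaf2, a chaperone of the alpha subunit (28.2 to 21.6 CPM, adjusted p = 0.029, edgeR).

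Among 18 genes of pyruvate dehydrogenase and the citric acid cycle, 2 were higher and 3 lower, beside 8.79% and 11.8% of all genes. Cs, citrate synthase, fell from 204 ± 1.30 to 168 ± 7.66 CPM (SD, n = 4 each), with a fitted log2 change of -0.28 ± 0.052 (SE, adjusted p = 0.0089, edgeR), and Dlst, of the oxoglutarate dehydrogenase complex, rose from 96.9 to 113 CPM (adjusted p = 0.025, edgeR). Beside 11.8% of all genes, 2 of 16 genes of mitochondrial biogenesis and mtDNA expression were lower. They were Polrmt, the mitochondrial RNA polymerase (43.1 to 31.7 CPM, adjusted p = 0.013, edgeR), and Tfb1m, an rRNA methyltransferase (11.4 to 8.72 CPM, adjusted p = 0.045, edgeR). Ppargc1a, Tfam, Nrf1 and Gabpa were not called.

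Of 6 tested germ line isoforms of energy metabolism, 1 was lower, beside 11.8% of all genes. Slc25a31, the germ cell ADP/ATP carrier of the inner membrane, fell from 116 ± 10.6 to 85.1 ± 10.7 CPM (SD, n = 4 each), with a fitted log2 change of -0.45 (adjusted p = 0.015, edgeR). Cyct, the testis cytochrome c, had 6.75 and 8.52 CPM (adjusted p = 0.30, edgeR). Ldhc, the testis lactate dehydrogenase, had a log2 fold change of -1.27 (adjusted p = 0.13, edgeR). Pan-germ markers had a median log2 fold change of -0.33 beside these, and their part in the values was not tested.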

How the data were processed

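RNA-seq of 8 libraries, 4 Brg1 WT and 4 Brg1 cKO, was analysed from a deposited table of estimated counts, 1 row per gene symbol, with no scaling by depth or length. Per the submitters' processing notes the authors used kallisto 0.42.5, edgeR and the mouse build mm9. Which annotation was used, and how transcripts were summed to symbols, is not given in the sources. Since 49.6% of values were not whole, counts were rounded. Groups and replicate numbers came from the sample titles, and no 2 libraries agreed within sampling noise (lowest chi-square per degree of freedom 21.8).

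The whole table was filtered with filterByExpr, normalised with TMM and tested with edgeR 4.0.16 (robust quasi-likelihood, genotype only, R 4.3.3), with Benjamini-Hochberg adjustment over 16059 genes and a threshold of 0.05. CPM is on TMM-scaled totals, and small counts limit precision for low genes. P-values set the difference between genotypes against the spread between these samples. List levels used a prior count of 2. Members and lists were chosen with earlier results of these data known. Values per library are given for members with a paralog, for up to 3 higher and 3 lower called members per complex or else its most abundant member, and for complex II, and values of up to 2 called genes per pathway list. Members named beyond this rule are said to be so. A gene that met the rule is not reported here, though counts over members include it. Alternatives were RLE, upper-quartile and total scaling, DESeq2 1.42.0, limma-voom 3.58.1, other filters, libraries left out, marker medians as no change and the replicate number as a block. Leaving out Brg1 WT replicate 1 with Brg1 cKO replicate 2 was added after seeing the data. The fit was checked on simulated counts. Transcript lengths and shared 31-base words came from GENCODE M21 and promoters from RefSeq on GRCm38.p6, matched by symbol, a later build than the files name.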

Additional observations from a re-analysis of the deposited data

Results flagged for a closer look

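Over 63 groups of 4 libraries of named members, 4 had 1 library far from the other 3, and chance flags about 1 in 20 such groups. Cox7a2 had 51.4 CPM in Brg1 cKO replicate 2, where the nearest other Brg1 cKO library had 42.5 CPM. Cox7b2 had 12.2 CPM in the same library, beside 10.3 CPM in the nearest. Ndufa12, an accessory subunit of complex I, had 16.3 CPM in Brg1 WT replicate 2, beside 30 CPM in the nearest Brg1 WT library. Uqcrc1 had 116 CPM in Brg1 WT replicate 4, where the nearest had 120 CPM, a small gap among 3 nearly equal values.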

How the results depend on the processing

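Counts of called members, 4 higher and 5 lower, depended on scaling and libraries more than on the tool. The shares over all genes moved too and are given as background, from 8.79% higher and 11.8% lower in the main fit. DESeq2 called 6 and 7 (background 13.3% and 13.2%), and RLE factors gave 3 lower (background 11.3%). With library totals only 0 were higher (3 at an unadjusted p under 0.05, edgeR, background 5.06%). With no filter 3 were lower (background 7.33%). Leaving out 1 library gave 1 to 5 higher and 1 to 7 lower (background 3.41% to 9.22% and 6.45% to 12.2%), most lower calls being made without Brg1 cKO replicate 2 and fewest when Brg1 WT replicate 3 or cKO replicate 1 was left out. Lower calls numbered 2 without WT replicate 1 or 2 or cKO replicate 3, 3 without cKO replicate 4 and 4 without WT replicate 4. Higher calls numbered 1 or 2 when any library but cKO replicate 4 was left out. Without Brg1 WT replicates 1 and 2 there were 1 higher and 0 lower (4 lower at an unadjusted p under 0.05, edgeR), the background being 0.584% and 2.08%. Without Brg1 WT replicate 1 and Brg1 cKO replicate 2 there were 2 higher (background 7.22%). The pan-germ marker median as no change gave 55 higher and 0 lower (background 50% and 3.82%, 0 lower at an unadjusted p under 0.05, edgeR) and moved the median of all genes to 0.35. The Sertoli median gave 0 higher (0 likewise, edgeR) and 70 lower (background 0.442% and 53%) and moved it to -0.37. Under the Sertoli median the log2 fold changes of Atp5a1, Atp5b, Atp5c1, Atp5g1, Atp5g3 and Cox7a2l were -0.21, -0.26, -0.19, -0.29, -0.075 and -0.25, and those of Cox7b, Ndufa4, Ndufb11, Sdhc and Sdhd -0.052, -0.32, -0.12, -0.33 and -0.28. Under the pan-germ median Cox4i1, Cox6a1, Cox6b1, Cox8a, Ndufa5, Ndufs8, Sdha and Uqcrc1 had 0.26, 0.078, 0.24, 0.30, 0.10, 0.025, 0.33 and 0.20. With the replicate number as a block 1 was higher and 1 lower (background 4.64% and 7.28%). Deviations of same-numbered samples had correlations of -0.21, 0.12, -0.36 and 0.15. These give no sign that the numbers pair the samples but cannot exclude it. Over 31 named members and 21 alternatives, 511 values kept direction and call, 69 lost the call, 28 gained it, 19 reversed in a member called in either fit and 23 changed sign in a member called in neither. The cause was not tested.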

Other observations

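Some estimates differed between libraries of 1 genotype far more than the others. Cox5b, a zinc-binding subunit of complex IV named after its values were seen, had 409, 212, 54 and 296 counts in Brg1 WT and 53, 393, 236 and 48 in Brg1 cKO. That is a range of 8.36-fold within Brg1 WT and 6.03-fold within Brg1 cKO, with a standard error of 0.77 on the log2 scale. Of its 31-base words 28.7% occur in 4 other genes. Ndufa12, also named after its values were seen, had 904, 426, 1069 and 736 counts in Brg1 WT and 696, 580, 421 and 351 in Brg1 cKO, and 29.3% of its words occur in Gm15920. The highest shares of such words among tested members were 69.6% for Atp5l and 54.3% for Uqcrb, and 49 of the 81 tested members had under 5%. How reads shared by such copies were split was not tested.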
